A study of Mus musculus with 25 samples.

Results

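The 42 genes described here were listed as subunits of respiratory complexes II, III, IV and V, together with cytochrome c. They were taken by gene symbol from the RNA tables of 11 mouse embryo libraries. Each of the 42 symbols was found at exactly 1 of the 24708 gene loci per table. The genes were listed by name and not by measured level, but with earlier results of these data known. By complex they are 4 genes of complex II, 9 of complex III, 11 of complex IV, 17 of complex V and Cycs, the gene of somatic cytochrome c.

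The study compared embryos conceived or treated in different ways, and all embryos were of the BDF1 strain. At the 2-cell stage (embryonic day 1.5) there were 2 libraries labelled WT, 2 labelled IVF (in vitro fertilization) and 2 labelled sIVF, a name the labels do not explain. At the blastocyst stage (embryonic day 4.0) there were 3 libraries labelled Fzr1-OE and 2 labelled Control. Gene ontology tables for subcutaneous fat compare BDF1 mice labelled Fzr1-OE and Control at 4 months of age, with 3 RNA libraries a group and 1 library a group for DNA methylation. Fzr1 encodes an activator of the anaphase-promoting complex, the ubiquitin ligase that drives exit from mitosis, and how it was overexpressed is not given in the labels. The labels do not say how many embryos went into a library, how WT and Control embryos were conceived, or whether libraries of a group came from separate collections, so the p-values below measure the spread between these libraries, which may be technical.

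The respiratory chain passes electrons along carriers in the inner mitochondrial membrane to oxygen and pumps protons across that membrane, and the proton gradient drives ATP synthesis. Complex II oxidises succinate and feeds electrons to ubiquinone, complex III passes them from ubiquinone to cytochrome c, complex IV passes them from cytochrome c to oxygen, and complex V is the ATP synthase, a rotary enzyme with a catalytic head (F1) and a membrane ring of c subunits. In mammals the early cleavage embryo relies on mitochondria inherited from the egg, and oxygen use rises towards the blastocyst stage. All 42 genes are nuclear. None of the 6 mitochondrially encoded subunit genes searched for by name matched a symbol in the tables, so they are not analysed here.

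Many of these genes are regulated through short GC-rich promoters, and a few windows are shown so that the motifs discussed with the blastocyst result can be seen. RefSeq start sites (build GRCm38.p6, another build than the one behind the RNA tables) were matched for 34 of the 42 genes, 3 of them under newer symbols. Below are the 150 bases before the start of 3 genes that were lower in the libraries labelled Fzr1-OE, on the strand of the gene. In Cox6b1 (chr7:30626115-30626264, minus strand) and Atp5e (chr2:174464102-174464251, minus strand) the capitals mark CCGGAAG on either strand, the letters bound by ETS factors such as GABPA. In Atp5g2 (chr15:102671048-102671197, minus strand) the capitals mark GCGCATGCG, read on both strands where it overlaps itself, the letters bound by NRF1, a transcription factor of respiratory genes.
Cox6b1: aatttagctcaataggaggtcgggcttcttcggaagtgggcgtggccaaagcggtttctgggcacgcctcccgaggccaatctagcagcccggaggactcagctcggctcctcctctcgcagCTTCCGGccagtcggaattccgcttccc
Atp5e: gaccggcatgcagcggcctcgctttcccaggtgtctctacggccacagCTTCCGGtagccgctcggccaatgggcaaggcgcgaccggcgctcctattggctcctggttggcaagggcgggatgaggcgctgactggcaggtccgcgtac
Atp5g2: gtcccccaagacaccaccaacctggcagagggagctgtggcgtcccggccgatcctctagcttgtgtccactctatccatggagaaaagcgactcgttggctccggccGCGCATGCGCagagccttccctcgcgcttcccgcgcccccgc

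The depth that the deposited confidence bounds imply was 4740660 to 6376064 fragments in the 2-cell libraries and 9324021 to 10483245 in the blastocyst libraries. Levels are FPKM, fragments per kilobase of transcript scaled to the fragments of the library. Fzr1 itself was at 12.7, 15.5 and 17.1 FPKM in the 3 libraries labelled Fzr1-OE and at 16.5 in both Control libraries, so the targeted gene was not higher in them, and they are called by their label throughout. Of 7 trophectoderm markers, all were above 0 in every blastocyst library. Of 4 oocyte markers, all were above 0 in at least 1 library of each 2-cell group, with a summed level of 53.2 to 112 FPKM against at most 2.52 in blastocysts. Cumulus and granulosa cell markers summed to at most 3.92 FPKM in any 2-cell library and were listed at 0 in every blastocyst library, and sperm markers summed to at most 3.004 in any library.

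The subunit genes were among the most abundant transcripts of both stages. The median member stood above 94.9% to 96.5% of expressed loci in each 2-cell library and above 98.6% to 98.7% in each blastocyst library, where 39 of the 42 lay above the 90th percentile. Together they held 2.90% and 2.71% of all FPKM in the WT 2-cell libraries, 2.67% and 2.65% in sIVF, 3.52% and 3.33% in IVF, 4.45%, 4.51% and 4.47% in the libraries labelled Fzr1-OE, and 5.07% and 5.05% in Control blastocysts. The 5 groups therefore took the order Control, Fzr1-OE, IVF, WT and sIVF. Only the last 2 of these stood close together, and no group overlapped its neighbour.

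**Figure D1:**
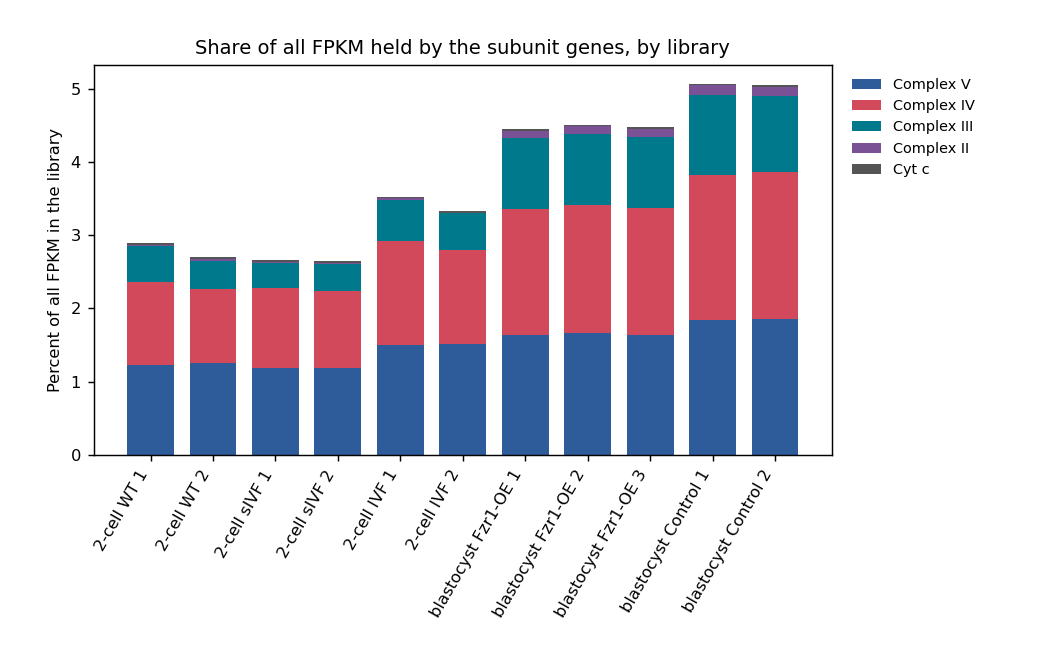
Percent of all FPKM in each of the 11 libraries that belongs to the 42 subunit genes, stacked by complex (cytochrome c is the thin top band). The 2-cell libraries lie between 2.65% and 3.52% and the blastocyst libraries between 4.45% and 5.07%.

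In 2-cell WT embryos the members spanned a wide range of FPKM. Atp5g1, which encodes the c subunit of the ATP synthase ring, was the highest at 1212 and 1373 FPKM, and was the highest member in each of the 6 2-cell libraries. At the other end Sdha, the flavoprotein of complex II, was at 0.0894 and 6.06 FPKM, and Uqcrc1, a core protein of complex III, at 6.82 and 6.72. Complex III was thus uneven in FPKM: its highest member, the small subunit gene Uqcr10, was at 447 and 410, a mean 63.3 times that of Uqcrc1. In Control blastocysts the ratio of the highest to the lowest mean in complex III was 7.12, with Uqcrc2 the lowest. The ratio in complex II was 7.40 in 2-cell WT embryos and 7.66 in Control blastocysts. The 7.40 divides by the mean of the 2 low and uneven Sdha values, so these 2 ratios are not firmly comparable. In complex IV the ratio was 22.8 and 22.2. In complex V it was 312 (Atp5g1 over Atp5g2) and 132 (Atp5g1 over Atp5s, the coupling factor B gene). Cox6b1 and Cox6c of complex IV, at 1910 and 1878 and at 1900 and 1980 FPKM, were then the highest of all members, and Atp5s the lowest at 13.1 and 9.82.

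The c subunit is encoded by 3 genes whose mature proteins are the same, so their balance is seen only in RNA. Atp5g1 made up 95.2% to 98.1% of the summed FPKM of Atp5g1, Atp5g2 and Atp5g3 in the 2-cell libraries and 79.5% to 83.2% in the blastocyst libraries, with no overlap between stages. The summed level of the 3 genes was 1274 and 1437 FPKM in WT, 1639 and 1672 in sIVF and 2222 and 1990 in IVF 2-cell embryos. In blastocysts it was 1298, 1558 and 1530 in the libraries labelled Fzr1-OE and 1882 and 1790 in Control. The 2-cell sums therefore overlapped the blastocyst sums, unlike those of most other members.

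Levels were lower at larger relative length, which was inferred from the deposited FPKM and confidence bounds and not taken from an annotation. FPKM enters that estimate, so part of a negative relation between the 2 may be built in. Across the 42 genes, Spearman's rho between FPKM and relative length was -0.73 in both WT 2-cell libraries and -0.66 and -0.65 in the Control blastocyst libraries. The points share a library, and 27 of the 42 genes are in the shortest of 10 equal length classes of the loci tested in blastocysts. FPKM divides by an estimated length, which is least certain for such short transcripts, and many of these genes have processed pseudogenes that can share reads. Levels are therefore firmer between libraries than between genes.

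All 42 members (65.3% of all loci) had a positive log2 fold change from 2-cell WT embryos to Control blastocysts, although 7, 6 and 9 of them turned negative after quantile, TPM and length scaling. Of the 42, 34 rose (81.0%, where 42.6% of the 9694 loci tested rose and 18.1% fell) and none fell at an adjusted p under 0.05 in limma, a linear model on log2(FPKM + 1). Before adjustment the counts at a p under 0.05 were 38 and 0 (45.9% and 20.0% of all loci). Groups did not overlap with blastocysts higher in 40 members and lower in 0 (56.5% and 26.4% of all loci). The median log2 fold change of the members was 1.88, beside 0.92 for all loci tested. The shift of all loci depends on the scaling, and was 0.01 after quantile normalization, 0.38 after scaling to a common sum (TPM) and 0.13 with the length trend of every library taken out. The members' median was then 1.15, 1.10 and 0.82, with 31, 28 and 27 that rose and 3, 2 and 4 that fell. Over all 9694 loci, 2648, 2912 and 2686 rose and 2822, 2452 and 2596 fell. The calls also leaned on having both Control libraries, among the members and over all loci alike. Without Control replicate 1 or 2, which leaves 1 library in that group, the members' median was 1.82 or 1.95. It was 0.77 or 0.81 over all loci. Stage and any difference in the handling of the 2 sets of libraries cannot be told apart here. Because FPKM is scaled to the fragments of each library, a rise is relative and gives no amount of RNA per embryo or per cell.

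**Figure D2:**
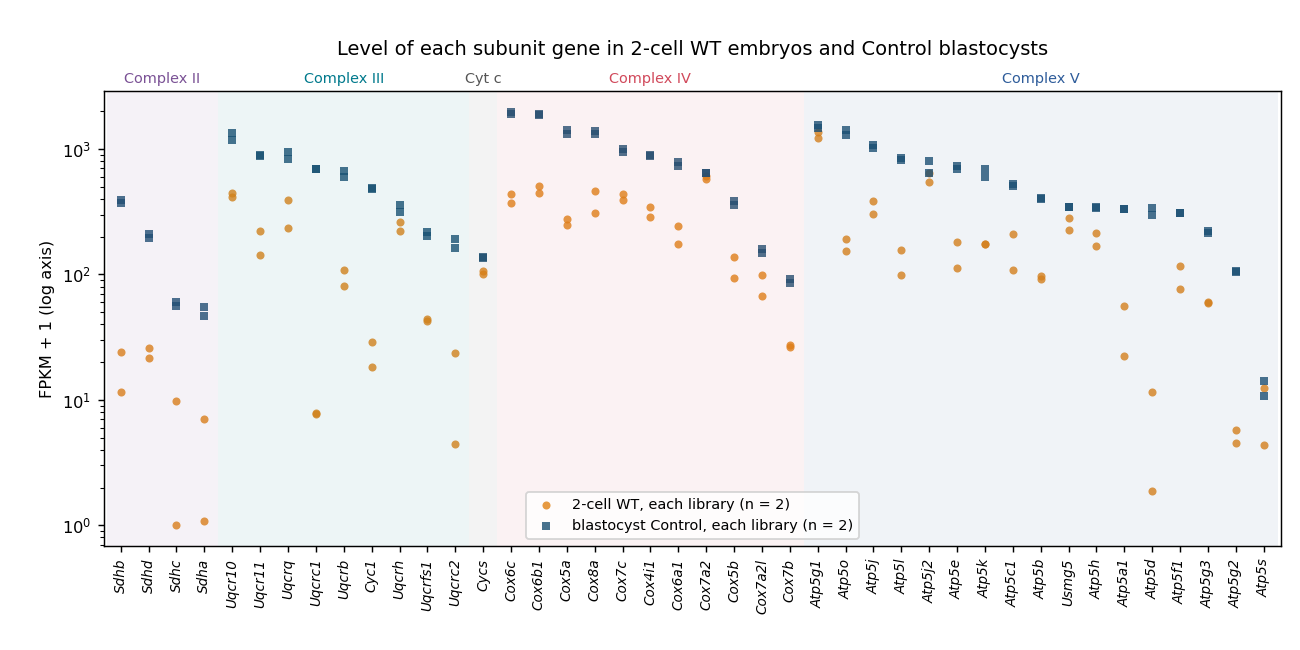
FPKM + 1 on a log axis for each of the 42 genes, grouped by complex and ordered by level in Control blastocysts, with a circle for each 2-cell WT library and a square for each Control blastocyst library. The distance between stages is large for Uqcrc1, Atp5d and Sdhb and small for Cox7a2, Atp5g1 and Atp5j2.

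Complex II had the lowest summed level of the 4 complexes in 2-cell WT embryos, at 39.9 and 54.2 FPKM, and its 4 genes had a median log2 fold change of 4.21, with 3 that rose. Sdhb, the iron-sulfur subunit, was at 10.5 and 23.1 FPKM in WT 2-cell embryos and 393 and 368 in Control blastocysts (log2 fold change 4.52, SE 0.41, adjusted p = 0.00359). Sdhd, a membrane anchor, went from 20.4 and 25.0 to 210 and 192 FPKM (3.10, SE 0.17, adjusted p = 0.00178). Neither pair of libraries came near the other. Sdha was at 45.3 and 54.1 FPKM in Control blastocysts and rose (4.19, SE 1.02, adjusted p = 0.0321). Sdhc, the other anchor, was at 8.83 FPKM in one WT library and listed at 0 in the other, against 55.5 and 59.8 in blastocysts, and did not pass (4.22, SE 1.23, adjusted p = 0.05, just over the threshold before rounding).

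In complex III 8 of 9 members rose, with a median of 2.32. Uqcrc1 had the largest change of all members: 6.82 and 6.72 FPKM in WT 2-cell embryos and 692 and 690 in Control blastocysts (6.48, SE 0.13, adjusted p = 0.00151). The Rieske iron-sulfur protein gene Uqcrfs1 was at 43.0 and 41.7 and then 218 and 202 FPKM (2.28, SE 0.13, adjusted p = 0.00176). Cyc1, cytochrome c1, was at 27.7 and 17.3 and then 480 and 487 FPKM, a change of 4.40. Of the small subunit genes, Uqcr10, Uqcrq and Uqcrh were above 200 FPKM in both WT 2-cell libraries, while Uqcr11 was at 220 and 141 and Uqcrb at 107 and 80.0. Uqcrh, the hinge protein that docks cytochrome c, was at 263 and 222 and then 354 and 313 FPKM and did not pass (0.46, SE 0.14, adjusted p = 0.052). Its direction turned under quantile, TPM and length scaling. Cycs changed by a similar size, at 99.6 and 106 and then 136 and 133 FPKM (0.38, SE 0.12, adjusted p = 0.0554), and turned under the same 3 scalings.

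In complex IV 10 of 11 members rose, by a narrower margin, with a median of 1.72 and a largest change of 2.38. That was Cox5a, at 277 and 246 FPKM in WT 2-cell embryos and 1405 and 1324 in Control blastocysts (SE 0.09, adjusted p = 0.00151). Cox6b1, which helps dock cytochrome c, was at 501 and 446 and then 1910 and 1878 FPKM (2.00, SE 0.08, adjusted p = 0.00151). Cox7a2 was the exception, at 607 and 576 and then 640 and 638 FPKM (0.11, SE 0.07, adjusted p = 0.213), and its change was below 0 under the quantile, upper-quartile, TPM and length scalings. It was the highest complex IV gene of WT 2-cell embryos by mean FPKM, and in Control blastocysts its mean of 639 FPKM was below the complex median of 886.

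In complex V 13 of 17 members rose, with a median of 1.87. Atp5d, the delta subunit of the F1 head, was at 10.5 and 0.869 FPKM in WT 2-cell embryos and 337 and 295 in Control blastocysts (6.09, SE 0.98, adjusted p = 0.0115). Atp5b, the catalytic beta subunit, was at 96.9 and 91.0 and then 399 and 406 FPKM (2.09, SE 0.10, adjusted p = 0.00162). Atp5g2 went from 3.57 and 4.72 to 104 and 105 FPKM (4.37, SE 0.21, adjusted p = 0.00162), whereas its paralog Atp5g1 went from 1212 and 1373 to 1555 and 1471 FPKM (0.23, SE 0.08, adjusted p = 0.0841). Between these 2 genes of the same protein the change differed by far more than either spread, and Atp5g1 turned below 0 under quantile, TPM and length scaling. The 8 members that did not pass were Sdhc, Uqcrh, Cycs, Cox7a2, Atp5g1, Atp5j2, Usmg5 and Atp5s, and 7 of them changed direction under at least 1 alternative. Of the 34 that rose, 32 kept their direction under all 14 alternatives, Cox7a2l and Atp5h being the exceptions.

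Members of larger inferred length had the larger changes, and also the lower levels in 2-cell WT embryos (Spearman's rho -0.73 in both libraries). The part of the starting level in this relation was not tested. The median log2 fold change was 2.98 for the 21 longer and 1.71 for the 21 shorter members, while over all loci it was -0.28 in the longest and 1.15 in the shortest of 10 length classes.

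Against WT, IVF 2-cell embryos showed no subunit gene past the threshold. None of the 42 passed in either direction, where 0.0121% of the 8246 loci tested passed as higher and 0.0% as lower. Before adjustment, 7 members were higher and 3 lower with a p under 0.05 in limma (6.86% and 5.55% of all loci). The 2 groups did not overlap with IVF higher in 11 members and lower in 6 (22.8% and 19.3% of all loci). The median log2 fold change was 0.08, beside 0.09 for all loci. Upper-quartile scaling alone, of 17 alternatives, gave a member that passed, Atp5g1. In that setting 17 of the 8246 loci passed as higher and 4 as lower. The median was then 0.24 for all loci and 0.25 for the members.

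The few members nearest the threshold were mostly abundant small subunits. Atp5g1 was at 1212 and 1373 FPKM in WT and 2119 and 1952 in IVF (log2 fold change 0.66, SE 0.12, adjusted p = 0.0961, and 0.0467 with upper-quartile scaling). Cox8a, a small subunit of complex IV, was at 462 and 308 in WT and 1131 and 754 in IVF (1.29, SE 0.24, adjusted p = 0.111). For both genes the groups were apart, by more than the gap within a group for Atp5g1 and by less for Cox8a. Atp5e, the epsilon subunit of the F1 head, was at 181 and 111 and then 394 and 304 FPKM (1.28, SE 0.28, adjusted p = 0.137). Uqcr10 was at 447 and 410 and then 650 and 695 (0.65, SE 0.14, adjusted p = 0.137), and Cox6c at 434 and 372 and then 712 and 571 (0.66, SE 0.19, adjusted p = 0.208). These 5 genes accounted for most of the gap of 2354 FPKM in the summed level, which was 8974 and 8067 in WT and 11464 and 10285 in IVF, with Atp5g1 adding 742 and Cox8a 557.

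Other members lay lower in IVF. Usmg5, which encodes the ATP synthase membrane subunit DAPIT, was at 225 and 279 FPKM in WT and 118 and 132 in IVF (-0.995, SE 0.21, adjusted p = 0.13). Cycs was at 99.6 and 106 and then 54.4 and 66.0 (-0.77, SE 0.23, adjusted p = 0.231). Both had groups that did not overlap. In complex II the 2-cell levels were too low and uneven to compare: Sdhd was at 13.3 FPKM in one IVF library and listed at 0 in the other, and Sdhb was at 38.4 and 31.5 (1.10 against WT, SE 0.42, adjusted p = 0.344). The largest positive change was that of Atp5d, at 20.4 and 12.9 in IVF (1.90, SE 0.90, adjusted p = 0.44). In complexes III and IV the lowest changes were those of Cyc1 (-1.87, SE 1.11), which was above 0 without IVF replicate 2, and Cox7a2l (-0.39, SE 0.30).

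The shift of these genes moved with length. Over all loci the median log2 fold change was 0.19 in the shortest of 10 length classes, which holds 26 of the 42 members, and 0.01 in the longest. With the length trend taken out, the members' median was -0.11 and none passed. Oocyte markers summed to 53.2 to 64.2 FPKM in WT, 82.9 to 94.9 in sIVF and 75.6 to 112 in IVF libraries, and their part in these values was not tested.

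**Figure D3:**
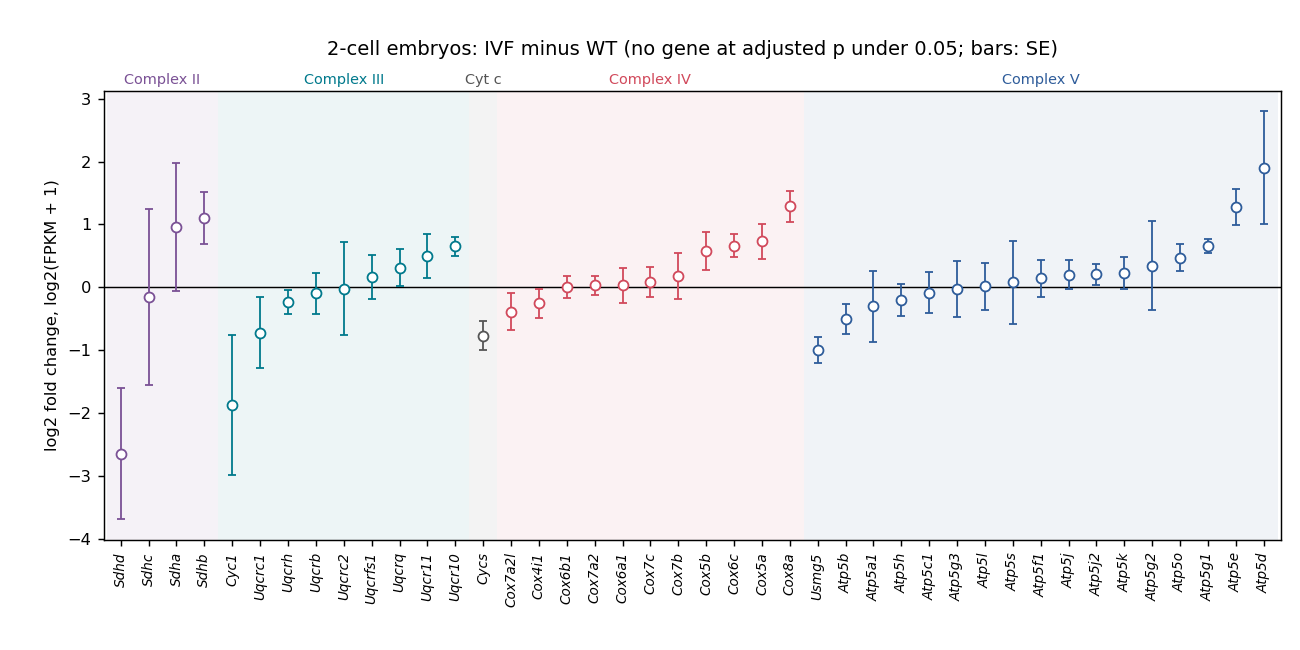
Log2 fold change of IVF against WT 2-cell embryos for each of the 42 genes with its standard error, grouped by complex. All symbols are open because no gene had an adjusted p under 0.05, and the values run from -2.64 for Sdhd to 1.90 for Atp5d.

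The sIVF embryos likewise showed no member past the threshold against WT or against IVF, where 0.0% of loci passed in either direction in both comparisons. These comparisons share the WT and IVF libraries with the one above. Against WT, 1 member was higher and 2 were lower by a p under 0.05 before adjustment in limma (4.61% and 2.49% of all loci), and the median log2 fold change was -0.03 (0.06 for all loci). Uqcrh had the smallest p, at 141 and 157 FPKM in sIVF against 263 and 222 in WT (-0.70, SE 0.19, adjusted p = 0.508). Usmg5 was at 148 and 177 FPKM (-0.63, SE 0.21, adjusted p = 0.552) and Atp5g1 at 1578 and 1595 (0.30, SE 0.12, adjusted p = 0.646). Next were Sdhb at 34.2 and 26.5 (0.90), Atp5o, the stalk subunit OSCP, at 250 and 209 (0.42), and Atp5b at 64.1 and 74.2 (-0.44). In these 6 genes the sIVF and WT libraries did not overlap, and over all members they were apart with sIVF higher in 8 and lower in 6 (20.6% and 15.3% of all loci). The extremes of the other genes were Sdhd (-1.29), Uqcrfs1 (0.60), Cox7a2l (-0.41), Cox8a (0.36), Atp5a1 (-1.04) and Atp5g2 (1.11), with adjusted p from 0.753 to 0.795, and Cycs was at -0.08.

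Against IVF, the same threshold before adjustment gave 1 member higher in sIVF and 7 lower in limma (6.29% and 5.52% of all loci). Uqcr10 had the smallest p, at 416 and 397 FPKM in sIVF against 650 and 695 in IVF (-0.73, SE 0.14, adjusted p = 0.13). Cox8a was at 481 and 485 (-0.93, SE 0.24, adjusted p = 0.215), Cox6c at 450 and 355 (-0.67, SE 0.19, adjusted p = 0.234) and Atp5e at 230 and 168 (-0.81, SE 0.28, adjusted p = 0.303). Atp5g1 was lower by a smaller step (-0.36, SE 0.12, adjusted p = 0.287), and Cycs, at 102 and 93.7 FPKM, was above IVF (0.69, SE 0.23, adjusted p = 0.291). In each of these 6 genes the groups did not overlap, as in 6 members in all with sIVF higher and 10 with sIVF lower (21.7% and 21.0% of all loci). The widest changes elsewhere were in genes of low level, Sdha (-1.68), Sdhd (1.35) and Cyc1 (1.41), and were within 2 standard errors. In complexes IV and V the remaining extremes were Cox7a2 (0.18), Atp5d (-0.94) and Atp5g2 (0.77). The median over the members was -0.10, and -0.02 over all loci.

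In blastocysts the subunit genes were lower in the libraries labelled Fzr1-OE than in Control. Of the 42 members 11 fell (26.2%, where 1.92% of the 9439 loci tested fell and 2.29% rose) and none rose. At an unadjusted p under 0.05 in limma 22 were lower and 0 higher (9.35% and 10.4% of all loci). The log2 fold change was below 0 in 33 of 42 members (49.3% of all loci), and the groups did not overlap with Fzr1-OE lower in 24 members and higher in 2 (18.4% and 19.0% of all loci). The changes were small: the median was -0.18, beside 0.01 for all loci, and the most negative was -0.48. The summed level of the 42 genes was 22386, 23472 and 23172 FPKM in the libraries labelled Fzr1-OE and 26840 and 26167 in Control, a difference between means of -13.2%.

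The fall was spread over all 4 complexes. In complex II 1 of 4 members fell, in complex III 2 of 9, in complex IV 3 of 11 and in complex V 5 of 17, and Cycs did not pass. The mean summed FPKM differed from Control by -20.6% in complex II, -10.6% in complex III, -14.5% in complex IV and -12.9% in complex V, and the groups did not overlap in any of the 4. The number that fell depended on single libraries and on the fit, as it did over all loci (181 of 9439 in the main fit). It was 3 without Fzr1-OE replicate 3 (87 of 9420 loci). It was 0 when loci of low level were kept in (0 of 16317 loci) or the fit used no intensity trend (11 of 9439). With the replicate number added to the fit as a block, 0 members fell as well (24 of 9439 loci). Fewer members and fewer loci also passed when 1 Control library was left out, which leaves 1 library in that group. The members' median was then -0.17 without replicate 1 and -0.21 without replicate 2. The median of the members stayed between -0.21 and -0.13 under all 15 alternatives.

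**Figure D4:**
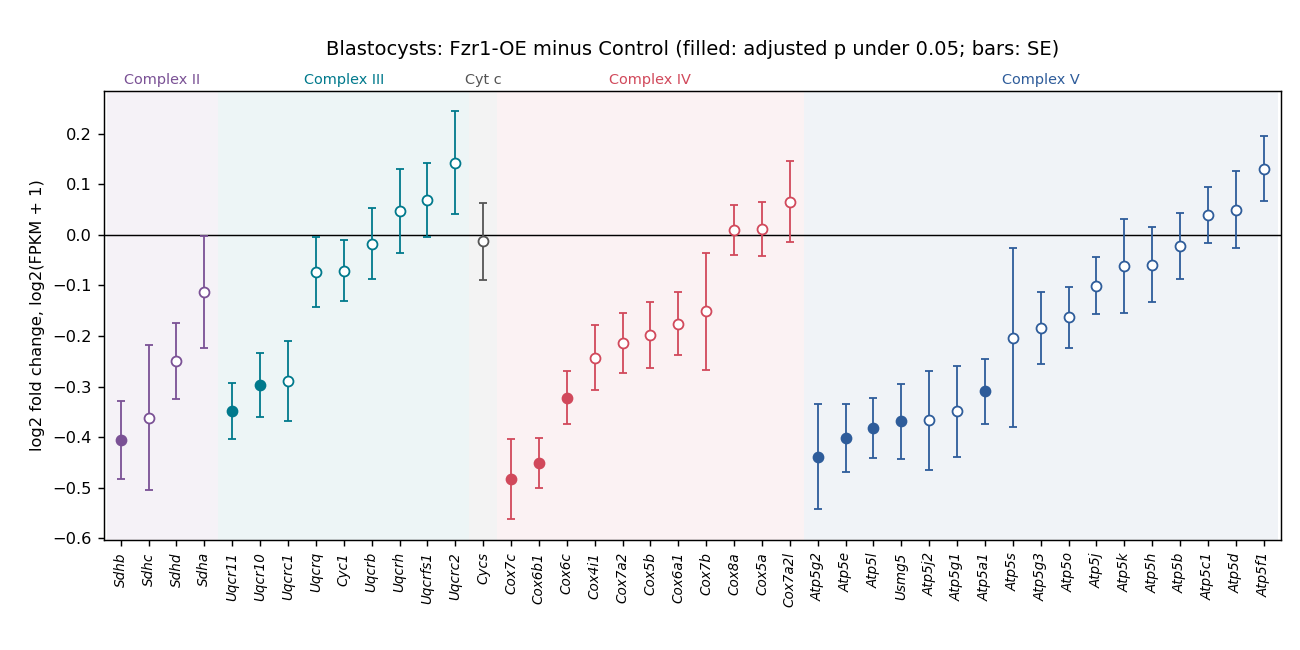
Log2 fold change of the libraries labelled Fzr1-OE against Control blastocysts for each of the 42 genes with its standard error, grouped by complex. Filled symbols are the 11 genes with an adjusted p under 0.05, all below 0, and 33 of the 42 symbols lie below 0.

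In complex II, Sdhb was at 269, 311 and 283 FPKM in the libraries labelled Fzr1-OE and 393 and 368 in Control (log2 fold change -0.41, SE 0.08, adjusted p = 0.0221). The 3 libraries stood at 70.7%, 81.6% and 74.3% of the Control mean. The anchors were also lower but did not pass, Sdhc at -0.36 (SE 0.14) and Sdhd at -0.25 (SE 0.07). Sdha was at 46.3, 45.7 and 45.2 against 45.3 and 54.1 FPKM, so the groups overlapped (-0.11, SE 0.11).

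In complex III both genes that fell encode small subunits. Uqcr11 was at 700, 669 and 720 FPKM against 891 and 883 in Control (-0.35, SE 0.06, adjusted p = 0.0097), and Uqcr10 at 1030, 995 and 1051 against 1342 and 1181 (-0.30, SE 0.06, adjusted p = 0.0342). No Fzr1-OE library reached the lower Control library in either gene. The core proteins went apart: Uqcrc1 was at 511, 619 and 572 against 692 and 690 FPKM (-0.29, SE 0.08, adjusted p = 0.078), and its partner Uqcrc2 at 178, 214 and 194 against 192 and 162 (0.14, SE 0.10, adjusted p = 0.49), the highest change among the members. Neither core protein passed, and the difference between them was not tested.

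In complex IV the 2 most abundant members fell. Cox6b1 was at 1333, 1422 and 1402 FPKM against 1910 and 1878 in Control (-0.45, SE 0.05, adjusted p = 0.00127), which is 70.4%, 75.1% and 74.0% of the Control mean. It was the one member that passed without any one of the 5 libraries, with an adjusted p of at most 0.0229. Cox6c was at 1623, 1541 and 1493 FPKM against 1900 and 1980 (-0.32, SE 0.05, adjusted p = 0.011). Cox7c, a small subunit of the complex, had the lowest change of all members at 641, 775 and 686 FPKM against 948 and 1005 (-0.48, SE 0.08, adjusted p = 0.0112). In contrast Cox8a, another abundant small subunit, was at 1342, 1370 and 1388 FPKM against 1393 and 1322 (0.01, SE 0.05, adjusted p = 0.94). Cox7a2l, the supercomplex assembly factor, was highest in the complex at 0.07 (SE 0.08).

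In complex V the 5 genes that fell came from the head, the ring and the membrane part. Atp5l, membrane subunit g, was at 644, 604 and 655 FPKM against 844 and 809 in Control (-0.38, SE 0.06, adjusted p = 0.00853), and Atp5e at 503, 571 and 538 against 695 and 724 (-0.40, SE 0.07, adjusted p = 0.012). Usmg5 (-0.37, adjusted p = 0.0261) and Atp5a1, the alpha subunit of the head (-0.31, adjusted p = 0.0292), fell by similar steps. Atp5g2 was at 69.0, 77.5 and 85.1 FPKM against 104 and 105 (-0.44, SE 0.10, adjusted p = 0.0481) and did not pass when any one library was left out. Its paralog Atp5g1 was at 1032, 1297 and 1251 FPKM against 1555 and 1471 and did not pass (-0.35, SE 0.09, adjusted p = 0.0626). Atp5f1, stalk subunit b, was the highest of the complex, at 349, 338 and 324 against 309 and 306 FPKM (0.13, SE 0.06, adjusted p = 0.303). Cycs was level at 128, 135 and 137 against 136 and 133 FPKM (-0.01, SE 0.08).

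**Figure D5:**
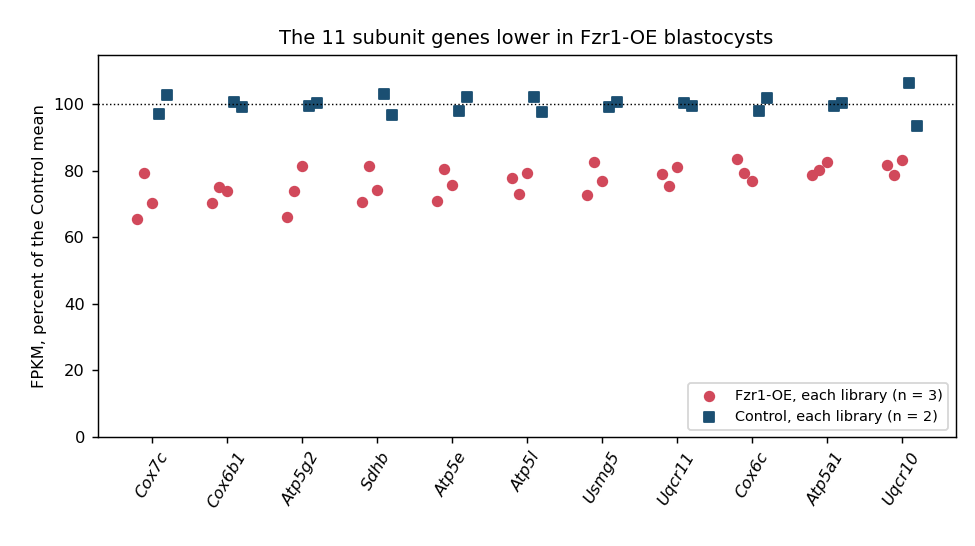
FPKM of the 11 genes that fell, as a percent of the Control mean, with a circle for each library labelled Fzr1-OE and a square for each Control library. The Fzr1-OE libraries lie between 65.6% (Cox7c) and 83.7% (Cox6c) and the Control libraries between 93.6% and 106% (both Uqcr10).

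The inferred length and promoter letters were set beside the fall. The 21 shorter members had a median log2 fold change of -0.24 and the 21 longer ones -0.11, while the shortest and longest of 10 length classes of all loci were at -0.01 and -0.02. Removal of the trend with length left 11 members lower and a median of -0.15. In the 300-base windows around RefSeq starts (250 bases before to 50 after, both strands), CCGGAAG was in 13 of 34 members (38.2%) and in 8.86% of all 32851 windows. GCGCANGCG, the NRF1 letters with 1 free base, was in 13 of 34 (38.2%) and in 6.25% of all windows. The SP1 letters GGGCGG were in 14 of 34 (41.2%) and 35.7% of all windows, and AAGATGGCG (YY1) was in 2 of 34 (5.88%) and 1.40%. Of the 9 genes that fell and have a window, 6 hold CCGGAAG and 3 the NRF1 letters with a free base. Of the 25 others, 7 hold CCGGAAG, Cox8a among them, and 10 the NRF1 letters. A match is a description of the letters only.

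Markers of cell types were set beside the blastocyst result and did not move as 1 set. The 7 trophectoderm markers summed to 3531 to 3599 FPKM in the libraries labelled Fzr1-OE and 5584 to 5622 in Control. Most of each sum came from the keratin genes Krt18 and Krt8. In limma 4 of the 7 fell and none rose (1.92% and 2.29% of all loci). Krt18 fell by 0.69 (limma adjusted p = 0.000193) and Krt8 by 0.61 (adjusted p = 0.000487) on the log2 scale. The change was below 0 in 5 markers and above 0 in 2. Those were Cdx2, at 9.33, 6.56 and 9.18 against 6.78 and 9.21 FPKM, and Tfap2c, at 18.9, 21.8 and 27.9 against 18.0 and 19.9. The 6 epiblast markers summed to 193 to 224 and 198 to 208 FPKM, and the 5 primitive endoderm markers to 31.3 to 34.3 and 21.6 to 24.7. Of the 3 primitive endoderm markers tested, Gata6 rose, at 23.2, 22.6 and 26.1 against 16.4 and 12.2 FPKM (0.72, SE 0.16, adjusted p = 0.0386), and Sox7 was listed at 0 in every library but one Control library, where it was at 0.562. Fewer cells of a type and less RNA per cell cannot be told apart in whole embryos. The part of these marker levels in the subunit result was not tested.

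Complex I, the other entry of electrons into the chain, moved in the same direction as complexes II to V in both comparisons that include blastocysts. Of its 36 nuclear subunit genes 6 fell in the libraries labelled Fzr1-OE and none rose (1.92% and 2.29% of all loci), with a median log2 fold change of -0.18. Ndufa7 was at a mean of 295 FPKM against 397 (-0.43, SE 0.07, adjusted p = 0.0110) and Ndufa8 at 319 against 428 (-0.42, SE 0.07). At the level of stage, all 36 rose from 2-cell WT embryos to Control blastocysts (42.6% of all loci), with a median of 2.97. For the assembly factors of complexes II to V in the Fzr1-OE comparison, of 27 genes in the tables none passed in limma (1.92% of all loci fell and 2.29% rose). Before adjustment 4 had a limma p under 0.05 (9.35% of all loci as lower and 10.4% as higher). The log2 fold change was above 0 in 16 and below 0 in 11 (49.3% of all loci were below 0), and the median was 0.10. From 2-cell WT embryos to Control blastocysts 17 of the 27 rose and 1 fell (42.6% and 18.1% of all loci), among them Cox17, the copper chaperone of complex IV, from a mean of 433 to 1688 FPKM (1.96, SE 0.09), and Atpaf1, an assembly factor of the F1 head, from 0.0535 to 35.0 FPKM (5.09, SE 0.24).

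In subcutaneous fat, the authors' deposited tables list gene ontology terms for Fzr1-OE against Control, and none of the 42 symbols was among the 449 gene symbols named for RNA or the 119 named for DNA methylation. Both lists are short beside the 24257 gene symbols of the embryo tables, so the absence says little about these genes in fat.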

How the data were processed

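RNA was measured in 11 embryo libraries. Per the labels' protocols, lysates were reverse transcribed directly, cDNA was amplified over 18 to 20 cycles, and paired ends were sequenced. Trim Galore 0.6.4, HISAT2 2.1.0, Cufflinks 2.2.1 and build mm9 are named in the submitters' processing notes. The authors deposited FPKM per gene locus with confidence bounds, from which the implied depth and the relative length of each locus were computed. All length classes and length trends rest on that inferred length. Their tables for fat hold gene ontology terms with gene names (deposited text, used only to look for members). H3K9me3 libraries are not analysed here.

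The 42 members and the gene lists were chosen with earlier results of these data known. Tables were joined on symbol and locus. limma 3.58.1 in R 4.3.3 (moderated linear model with intensity trend) was run on log2(FPKM + 1) over loci whose mean FPKM in the libraries of the fit reached 1, with Benjamini-Hochberg adjustment over all loci and a threshold of 0.05. Fold changes are on that scale, which understates changes of low genes. The 6 2-cell libraries shared one fit, the 5 blastocyst libraries another, and the stage comparison used the WT and Control libraries. The fit was tested on simulated data. Members named in full were those that passed (where more than 10 passed, the 2 of smallest p per complex), the 6 of smallest p where fewer than 3 passed, and the extremes of each complex. Correlations of deviations between same-numbered libraries showed no pairing of the replicates but cannot exclude one. The alternatives tried are given in the closing section. Groups of 2 or 3 libraries limit the precision of every value.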

Additional observations from a re-analysis of the deposited data

How the results depend on the processing

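All alternatives were planned. Among the 2-cell comparisons, upper-quartile scaling gave 1 member higher in IVF than in WT (17 of 8246 loci). The median log2 fold change of IVF against WT was -0.018 after quantile normalization and -0.11 with the length trend removed, and ran from -0.044 to 0.23 when one library was left out. That range was -0.16 to 0.12 for sIVF against WT and -0.31 to -0.014 for sIVF against IVF, which was 0.016 with the length trend removed. In Fzr1-OE against Control, 0 members fell without a filter on low loci, without the intensity trend or with the replicate block. In these settings 0, 11 and 24 of all loci fell. Leaving out one Fzr1-OE library gave 3 to 11 members that fell (87 to 161 of all loci). Medians were -0.21 to -0.16 with any one library left out and -0.13 with upper-quartile scaling. Fewer members and fewer loci passed when 1 Control library was left out. From 2-cell WT to Control blastocysts, 3, 2 and 4 members fell after quantile, TPM and length scaling, with medians of 1.15, 1.10 and 0.82, and 8 to 39 rose with one library left out. The cause of these changes was not tested.

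Single genes also changed direction. Under quantile, TPM and length scaling the stage change was -0.35, -0.32 and -0.61 for Uqcrh, -0.54, -0.67 and -1.11 for Cox7a2 (-0.063 with upper-quartile scaling), -0.30, -0.56 and -0.61 for Atp5g1, and -0.44, -0.40 and -0.25 for Cycs. In Fzr1-OE against Control, Cycs was at 0.036 with upper-quartile and 0.015 with TPM scaling and Cox8a at -0.00137 with the replicate block. In sIVF against IVF, Cox7a2 was at -0.038 with upper-quartile scaling. With one library left out, Fzr1-OE against Control ran from -0.24 to 0.013 for Sdha, -0.027 to 0.047 for Cox8a and -0.033 to 0.014 for Cycs. Cyc1 ran from -3.95 to 0.20 in IVF against WT. In sIVF against IVF the ranges were -0.57 to 3.27 for Sdhd, -0.67 to 3.49 for Cyc1 and -0.0063 to 1.54 for Atp5g2.

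The replicate numbers are shared between groups, and deviations of same-numbered libraries correlated at -0.07 to 0.07, so no pairing was seen. These correlations cannot exclude shared collections, because deviations in a group of 2 libraries mirror each other and many of the pairs cross stages. With the replicate block 36 members rose between stages (4084 of 9694 loci), and 0 fell in Fzr1-OE against Control (24 of 9439 loci).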

Other observations

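Of 8 isoforms of these subunits that are usually restricted to certain tissues, 5 were abundant enough to test between stages, and 2 rose and 2 fell from 2-cell WT embryos to Control blastocysts, where 42.6% of all loci rose and 18.1% fell. Cox6b2, the testis form of Cox6b1, was at 81.9 and 43.9 FPKM in WT, 270.2 and 126 in sIVF and 112 and 97.4 in IVF 2-cell embryos. It was at 18.0 and 16.7 FPKM in Control blastocysts, a fall from WT of 1.74 on the log2 scale (SE 0.36, limma adjusted p = 0.0222). Cyct, the testis cytochrome c, was at 2.70 FPKM in one WT 2-cell library and listed at 0 in the other, and at 29.0 and 24.2 in Control blastocysts (3.84, SE 0.73, adjusted p = 0.0174).

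Among 7 ATP, ADP and phosphate carriers and porins, 6 rose between the same stages and 1 fell (42.6% and 18.1% of all loci). Slc25a5, an ADP/ATP carrier, went from a mean of 63.0 to 2084 FPKM (5.04, SE 0.16, adjusted p = 0.00151). The germline carrier Slc25a31 fell from 3.88 to 0.727 FPKM (-1.50, SE 0.21, adjusted p = 0.00808). Of 10 genes of ubiquinone synthesis 6 rose and none fell (42.6% and 18.1% of all loci). Of 13 transcriptional regulators of respiratory genes 11 were tested, and 1 rose (Tfb1m, 2.48) and 3 fell (42.6% and 18.1% of all loci), among them Gabpa from 49.4 to 14.8 FPKM (-1.70, SE 0.26) and Yy1 from 50.4 to 11.8 (-2.01, SE 0.20). Between Fzr1-OE and Control blastocysts no gene of these 4 lists passed in limma (2.29% of all loci rose and 1.92% fell). An unadjusted p under 0.05 was seen in 2 of the 3 restricted isoforms tested and 1 of the 12 regulators tested (10.4% of all loci as higher and 9.35% as lower).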
